A study of Mus musculus with 6 samples.

Results

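The genes described here are 38 components of the canonical Wnt pathway together with the Tle corepressors, listed as 14 receptors and receptor regulators, 12 cytoplasmic parts and 12 nuclear factors. They were chosen by name, with earlier results of these data known. Each was read from 1 probe set, the brightest on average over the arrays (log2 scale) among those annotated to that gene alone. This gave 37 members out of 18193 genes represented on the array. Tcf7 is not analysed here. RNA came from wild-type C57BL/6 mice, from 2 populations of blood-forming cells sorted by flow cytometry, with no age given and no treatment named other than lysis. Cells of both populations were low in lineage markers and positive for the receptor Kit. LSK cells were also positive for Sca-1 and include the stem cells and multipotent progenitors, whereas LK cells were negative for Sca-1 and are committed progenitors. There were 3 arrays per population. The labels leave out whether these came from separate animals or pools, so the p-values rest on a spread between samples that may be technical.

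In canonical Wnt signalling a Wnt ligand binds a Frizzled receptor (Fzd) and an Lrp coreceptor, which recruit Dishevelled (Dvl) and silence a complex of Axin, Apc, casein kinase and Gsk3 that otherwise marks beta-catenin (Ctnnb1) for destruction. Stabilised beta-catenin enters the nucleus and binds factors of the Tcf/Lef family. Without it, these factors sit on DNA with Groucho-type corepressors, the Tle proteins, and with it they recruit Bcl9 and Pygo. The pathway has long been studied in the self-renewal of blood stem cells and in lymphoid development.

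Most of the members that differed were nuclear factors, though this rested in part on calls lost when 1 array was left out. Of 37 members, 5 were higher in LSK and 0 lower by limma (adjusted p under 0.05), namely the receptor Fzd6, the Tcf/Lef family factor Tcf7l2, the coactivator Bcl9 and the corepressors Tle2 and Tle4. Of all 18193 genes, 3.84% were higher and 2.89% lower at this threshold. By group, 1 of 14 receptors, 0 of 12 cytoplasmic parts and 4 of 11 nuclear factors were higher. The calls of Tle2 and Tle4 were lost whichever 1 array was left out, and without LK replicate 3 only Fzd6 and Tcf7l2 passed. The median log2 difference (LSK minus LK) was 0.01 for the receptors, 0.02 for the cytoplasmic parts and 0.61 for the nuclear factors, and -0.02 over all genes. A mean log2 under 4 over the 6 arrays, near the floor, was found for 10 of 14 receptors, 6 of 12 cytoplasmic parts and 6 of 11 nuclear factors. The medians therefore rest in large part on dim genes. Whether the groups differed from each other was not tested. When arrays of the same number were paired (the replicate block), 7 members passed as higher and 0 as lower, against 7.02% and 7.36% of all genes, and Lrp6 and Tle3 joined the other 5.

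**Figure D1:**
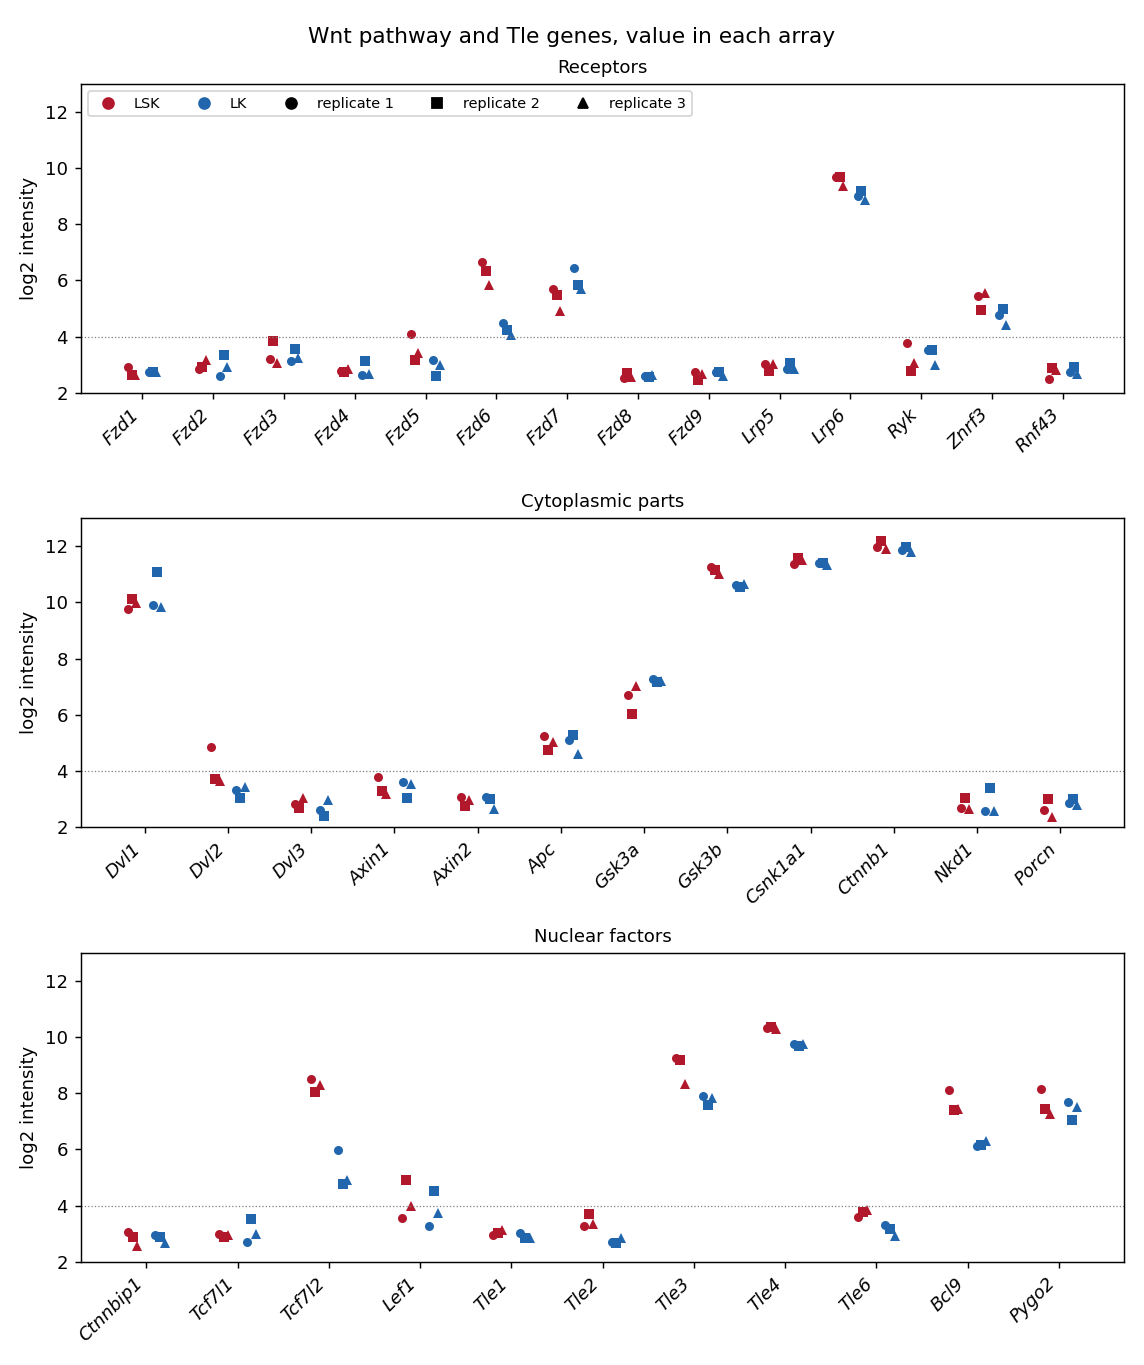
Log2 intensity of each of the 37 members in each array, by group of members, where red marks LSK and blue LK, the symbol marks the replicate number, and the dotted line lies at a log2 of 4. The LSK arrays lie above the LK arrays without overlap for 10 members (Fzd6, Lrp6, Dvl2, Gsk3b, Tcf7l2, Tle2, Tle3, Tle4, Tle6 and Bcl9; 13.2% of all genes) and below them for 2 (Fzd7 and Gsk3a; 14.8%), and 22 of the 37 members have a mean under the line.

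Many members lay near the floor of the array. A mean log2 under 4 over the 6 arrays was found for 22 of the 37 members, or 59.5%, and for 58.7% of all genes. These were Fzd1, Fzd2, Fzd3, Fzd4, Fzd5, Fzd8, Fzd9, Lrp5, Ryk, Rnf43, Dvl2, Dvl3, Axin1, Axin2, Nkd1, Porcn, Ctnnbip1, Tcf7l1, Lef1, Tle1, Tle2 and Tle6. Differences of such genes are compressed, and a difference may not be detectable there. The 22 had log2 differences between -0.22 and 0.81.

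The sums of several marker lists separated the populations, and a measure of RNA quality differed between them with overlap. The summed intensity of 5 measured granulocyte markers was 4579.85 to 9423 in LSK and 14888 to 28815 in LK, that of 4 monocyte markers 518 to 2365 and 2631 to 5508, and that of 5 erythroid markers 627 to 1088 and 4318 to 7495. In LSK the erythroid sum was led by Tfrc, with log2 intensities of 9.12, 9.54 and 9.98, while the other erythroid markers measured stayed at 5.54 or lower. The summed intensity of 5 stem cell markers was 3573 to 4627 in LSK and 272 to 420.48 in LK. The gene for Sca-1 itself is not analysed here. Mast cell markers summed to 52.2 to 226 and 243 to 655. Megakaryocyte markers summed to 143 to 179 and 169 to 424, and NK cell markers, led by Nkg7, to 609 to 1001 and 956 to 2521, both with overlap. Among the megakaryocyte markers Pf4 was lower in LSK (log2 difference -1.18, limma adjusted p = 0.0935) and Gp9 higher (0.98, 0.0670), each without overlap. Both passed with the replicate block (0.0433 and 0.0241) but not without it. Each of 6 T cell and 7 endothelial and stromal markers and 6 of 7 B cell markers had a mean log2 under 4. Of these, the endothelial marker Emcn, also known from blood stem cells, was higher in LSK (log2 difference 1.77, 3.41-fold, limma adjusted p = 0.0119), without overlap. The sums of the 3 lists in LSK and LK were 39.3 to 52.6 and 37.0 to 38.6 for T cells, 60.7 to 67.3 and 48.7 to 62.1 for endothelial and stromal cells, and 72.3 to 113 and 62.5 to 83.1 for B cells. In sorted bulk RNA, fewer cells of a type and less RNA per cell cannot be told apart, and the part of composition in the results below was not tested. The control probe sets at the 3' end of housekeeping transcripts exceeded those at the 5' end, a gap that widens with 3' bias, by log2 values of 2.32, 2.32 and 3.30 in LSK and 3.26, 3.94 and 3.40 in LK. With this measure as a covariate, 0 of the 37 members passed in limma, against 0.137% of all genes, while the 5 members kept positive log2 differences (0.56 for Tle4 to 2.72 for Tcf7l2). The replicate 2 arrays had lower upper quartiles of intensity (22.1 in LSK and 20.8 in LK) than the others (24.3 to 25.8).

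The sequences upstream of both Tcf7l2 starts are shown because Tcf7l2 had the member list's highest log2 difference. Of the Tle windows, the 3 shown were picked after the motif search because they held CACGTG. The windows of Tle1 and Tle2 and the second windows of Tle4 (chr19:14597214-14597463) and Tle6 (chr10:81597368-81597617) held none of the motifs and are not shown. All come from RefSeq (GRCm38.p6), which held windows for 27 of the 38 genes, and each covers the 250 bases before a transcript start, 5′ to 3′ on the gene's strand. Capitals mark 3 kinds of motif. Those bound by Tcf/Lef proteins were CTTTGAT (in 3.205% of the 32851 windows of all genes), the form CTTTGAA (4.456%) and the form CTTTGTT (5.029%). The core TGTGGT (14.05%) is bound by Runx factors, which also recruit Tle proteins, and CACGTG (6.021%) is an E-box. Both strands were searched, the motifs were kept after a wider set had been looked at, and the Tcf/Lef forms cannot match at the same position of 1 strand. The Tcf7l2 windows are chr19:55741560-55741809 and chr19:55895071-55895320 (plus strand), and those shown for Tle3, Tle4 and Tle6 are chr9:61372116-61372365 (plus strand), chr19:14598184-14598433 (minus strand) and chr10:81600901-81601150 (minus strand).
Tcf7l2, first start: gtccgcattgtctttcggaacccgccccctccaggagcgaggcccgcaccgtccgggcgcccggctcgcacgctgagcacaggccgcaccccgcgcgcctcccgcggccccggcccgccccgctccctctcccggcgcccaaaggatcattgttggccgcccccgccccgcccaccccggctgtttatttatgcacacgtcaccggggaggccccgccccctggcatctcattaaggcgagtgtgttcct
Tcf7l2, second start: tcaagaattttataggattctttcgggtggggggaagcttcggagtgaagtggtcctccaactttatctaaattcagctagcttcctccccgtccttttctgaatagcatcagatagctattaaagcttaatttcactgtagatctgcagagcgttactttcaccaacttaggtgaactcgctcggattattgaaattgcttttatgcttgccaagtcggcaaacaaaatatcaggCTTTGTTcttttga
Tle3: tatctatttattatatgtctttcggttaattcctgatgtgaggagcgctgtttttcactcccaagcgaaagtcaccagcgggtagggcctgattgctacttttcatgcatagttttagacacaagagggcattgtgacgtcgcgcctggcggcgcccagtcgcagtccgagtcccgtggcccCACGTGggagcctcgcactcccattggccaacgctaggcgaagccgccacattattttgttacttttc
Tle4: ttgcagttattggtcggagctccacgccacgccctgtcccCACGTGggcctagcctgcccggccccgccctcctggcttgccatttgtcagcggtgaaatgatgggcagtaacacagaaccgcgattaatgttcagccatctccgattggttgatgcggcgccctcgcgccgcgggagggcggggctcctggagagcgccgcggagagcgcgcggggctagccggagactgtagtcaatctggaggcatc
Tle6: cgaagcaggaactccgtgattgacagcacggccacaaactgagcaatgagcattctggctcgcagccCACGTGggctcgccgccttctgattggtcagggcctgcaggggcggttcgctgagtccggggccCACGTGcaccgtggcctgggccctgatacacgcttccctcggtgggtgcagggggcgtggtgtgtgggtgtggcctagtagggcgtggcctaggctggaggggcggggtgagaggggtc

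The second Tcf7l2 window held CTTTGTT, beginning 14 bases before the start, and the first held none of the motifs. Any of the Tcf/Lef forms was present in 3 of 39 member windows (Tcf7l2, Fzd7 and Gsk3a) and in 12.04% of all windows. CACGTG was in 6 member windows, of Tle3 (68 bases before the start), Tle4 (210 bases), Tle6 (183 and 119 bases), Dvl2, Fzd9 and Lef1, which is 15.38% of the 39. TGTGGT was in 0 of the 39. A match is a description of these letters and no evidence of binding.

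Among the Tcf/Lef factors, Tcf7l2 (also known as TCF4 protein, and distinct from the gene Tcf4) had log2 intensities of 8.49, 8.06 and 8.30 in LSK replicates 1 to 3 and 5.99, 4.78 and 4.92 in LK. The LSK arrays lay close together, the LK arrays lay lower and were more spread, and the populations did not overlap. This was an 8.32-fold difference (log2 3.06, SE 0.33, limma adjusted p = 0.00611). Arrays with the same number differed by 2.50, 3.28 and 3.38. Leaving out any 1 array kept the call, with adjusted p between 0.00237 and 0.0348. A further Tcf7l2 probe set, near the lower end of the range, was also higher in LSK (log2 difference 1.14, SE 0.19, limma adjusted p over all probe sets 0.0343), and the other 2 of its 4 probe sets had differences of 0.44 and 0.35 that did not pass.

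Lef1, a further factor of the family with a known role in lymphoid progenitors, had values of 3.56, 4.91 and 3.99 in LSK and 3.28, 4.52 and 3.74 in LK. The replicate 2 array was the highest in each population, and the populations overlapped. The log2 difference was 0.31 (SE 0.43, limma adjusted p = 0.742), and arrays with the same number differed by 0.28, 0.39 and 0.25. Tcf7l1, which acts mainly as a repressor, stayed between 2.72 and 3.52 on the 6 arrays, with a log2 difference of -0.12 (adjusted p = 0.795). Ctnnbip1, an inhibitor that keeps beta-catenin from Tcf factors, lay between 2.58 and 3.05 (log2 difference 0.01, adjusted p = 0.983).

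Bcl9, which links beta-catenin to Pygo proteins, had log2 intensities of 8.11, 7.39 and 7.42 in LSK and 6.12, 6.16 and 6.30 in LK. LSK replicate 1 was the highest, and the lowest LSK array lay above the highest LK array. The difference was 2.73-fold (log2 1.45, SE 0.22, limma adjusted p = 0.0155). The adjusted p became 0.0628 without LK replicate 3. The second Bcl9 probe set was near the lower end of the range and had a difference of -0.03. Pygo2, the partner that reads methylated histone H3, had values of 8.14, 7.44 and 7.25 in LSK and 7.70, 7.05 and 7.50 in LK, which overlapped (log2 difference 0.19, SE 0.28, adjusted p = 0.749).

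Each of the 5 Tle genes had a positive log2 difference, as had 8487 of all 18193 genes. The 5 signs held after renewed quantile and cyclic loess normalisation of the same arrays. Of the 5 genes, 4 separated the populations without overlap, as did 13.2% of all genes with LSK above LK. The members passing limma were 2 of the 5, Tle2 and Tle4. Tle4 had values of 10.33, 10.35 and 10.30 in LSK and 9.73, 9.68 and 9.74 in LK. Both sets of arrays were tight, with an SD of 0.02 and 0.03, and the log2 difference of 0.61 (SE 0.11), or 1.52-fold, had an adjusted p of 0.0299. Leaving out any 1 array took the adjusted p to between 0.0586 and 0.111, with log2 differences from 0.59 to 0.62. The other 2 of 3 Tle4 probe sets were at the lower end of the range and had differences of -0.26 and 0.01, so the mean over the probe sets gave 0.12 (adjusted p = 0.689).

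Tle3 had log2 intensities of 9.24, 9.17 and 8.33 in LSK and 7.89, 7.57 and 7.84 in LK. LSK replicate 3 lay nearest to the LK arrays but above them. The difference of 2.21-fold (log2 1.15, SE 0.26) missed the threshold in limma (adjusted p = 0.0521) and passed it with the replicate block (0.0337). Of the fits that left out 1 array, only that without LSK replicate 3 passed (log2 difference 1.44, adjusted p = 0.0135). Without LSK replicate 1 or 2 the adjusted p was 0.155 and 0.130, without LK replicate 1, 2 or 3 it was 0.104, 0.117 and 0.145, and the lowest difference was 0.98. In LSK replicate 3 the granulocyte marker Elane had a log2 intensity of 9.50, against 7.70 and 8.05 in the other LSK arrays. The 3' to 5' measure of LSK replicate 3 was 3.30, against 2.32 and 2.32 in the other LSK arrays. The part of either in the Tle3 value was not tested. A second Tle3 probe set had values of 8.37, 7.49 and 7.64 in LSK and 7.70, 6.01 and 7.40 in LK, a log2 difference of 0.80 (SE 0.47) that did not pass (adjusted p over all probe sets 0.452). The other 2 of 4 lay at the lower end of the range, with differences of 0.02 and -0.02. With the 3' to 5' measure as a covariate the Tle3 difference was 0.46.

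Tle2 and Tle6 lay near the lower end of the range. Tle2 had values of 3.27, 3.70 and 3.35 in LSK and 2.70, 2.69 and 2.83 in LK, without overlap. Its log2 difference of 0.70 (SE 0.16) had an adjusted p of 0.0482, and leaving out any 1 array took this to between 0.0784 and 0.128. Tle6, a divergent family member, had 3.61, 3.78 and 3.83 in LSK and 3.31, 3.17 and 2.91 in LK, also without overlap (log2 difference 0.61, SE 0.15, adjusted p = 0.0667). Tle1 had 2.97, 3.02 and 3.12 in LSK and 3.02, 2.84 and 2.86 in LK, which overlapped (log2 difference 0.13, adjusted p = 0.624). Tle5, the short family member that lacks the repeat domain, was outside the member list and had a difference of 0.30 (SE 0.50, adjusted p = 0.784).

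**Figure D2:**
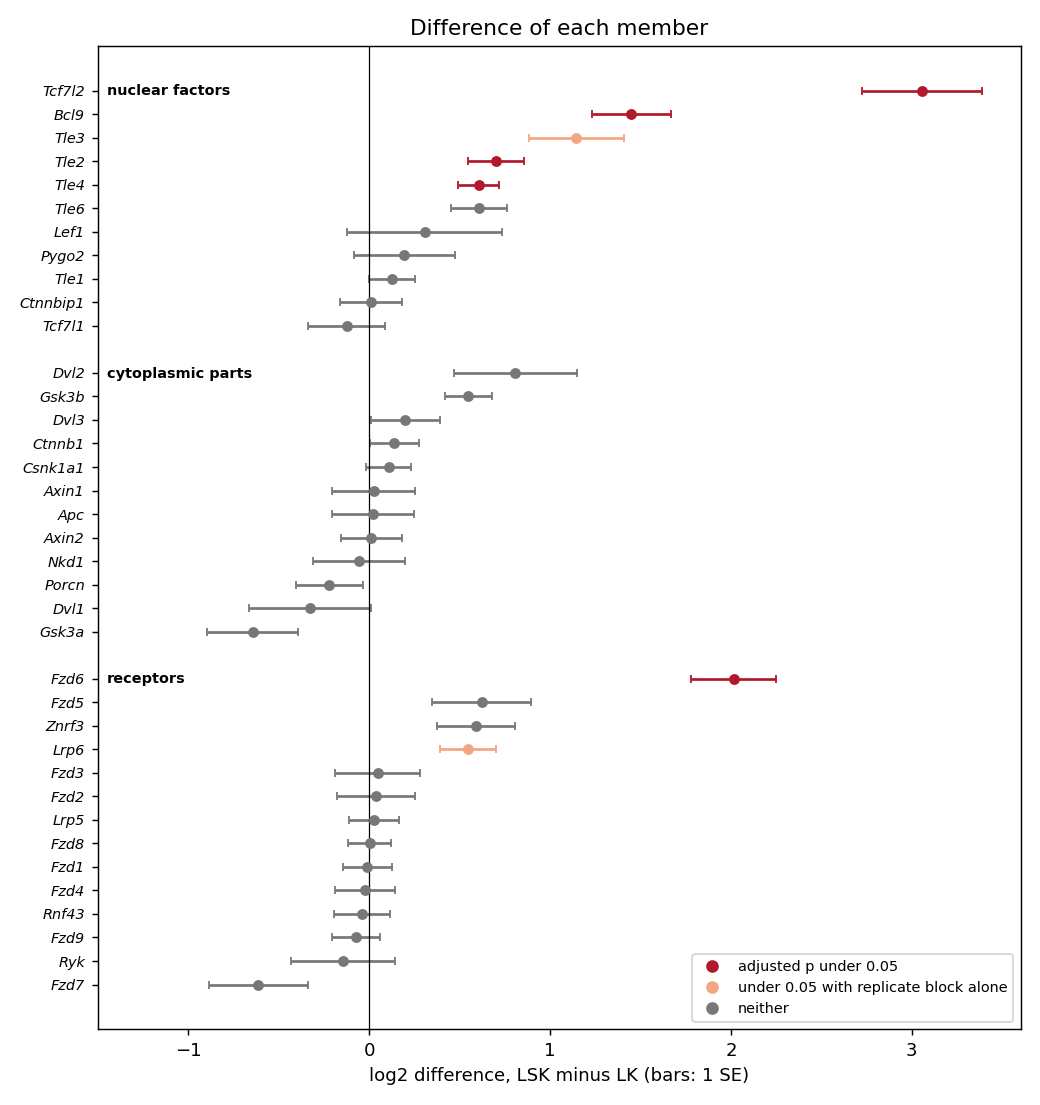
Log2 difference (LSK minus LK) of each member with bars of 1 SE, ordered within its group, where red marks a limma adjusted p under 0.05, light orange the members past it with the replicate block alone (Lrp6 and Tle3) and grey the rest. The nuclear factors run from -0.12 (Tcf7l1) to 3.06 (Tcf7l2), and the cytoplasmic parts from -0.64 (Gsk3a) to 0.81 (Dvl2).

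Among the receptors, Fzd6 differed. Fzd6, a Frizzled also linked to planar cell polarity, had log2 intensities of 6.67, 6.33 and 5.84 in LSK and 4.49, 4.24 and 4.07 in LK. The populations did not overlap, and arrays with the same number differed by 2.18, 2.09 and 1.77. The difference was 4.04-fold (log2 2.01, SE 0.24, limma adjusted p = 0.00720). The adjusted p stayed between 0.00869 and 0.0424 when any 1 array was left out and was 0.0563 without both arrays numbered 2. The other 2 Fzd6 probe sets lay at the lower end of the range, with differences of 0.46 and -0.31 that did not pass.

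Fzd7 had values on the other side, 5.68, 5.49 and 4.92 in LSK and 6.43, 5.82 and 5.68 in LK. The highest LSK value lay just under the lowest LK value, an order without overlap seen in 14.8% of all genes, and the log2 difference of -0.61 (SE 0.27) did not pass (adjusted p = 0.252). Fzd5 had 4.08, 3.16 and 3.41 in LSK and 3.18, 2.61 and 2.98 in LK, with overlap (log2 difference 0.62, SE 0.27, adjusted p = 0.245). The other 6 Frizzled genes had differences between -0.07 for Fzd9 and 0.05 for Fzd3, and adjusted p of at least 0.810.

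Lrp6, the coreceptor that Wnt ligands bring to Frizzled, had log2 intensities of 9.68, 9.66 and 9.34 in LSK and 9.00, 9.16 and 8.88 in LK. The LSK arrays lay above the LK arrays without overlap. The difference of 1.46-fold (log2 0.55, SE 0.15) had a limma adjusted p of 0.0880, and of 0.0495 under the replicate block. The other Lrp6 probe set lay at the lower end of the range (0.26, not past the threshold). Its relative Lrp5 stayed between 2.77 and 3.04 (log2 difference 0.02, adjusted p = 0.945), and the kinase-like receptor Ryk between 2.79 and 3.77 (-0.14, adjusted p = 0.825). Znrf3, a ubiquitin ligase that removes Frizzled from the surface, had 5.43, 4.96 and 5.54 in LSK and 4.76, 4.97 and 4.43 in LK. LSK replicate 2 lay within the LK range, and the difference of 0.59 (SE 0.22) did not pass (adjusted p = 0.169). Its relative Rnf43 lay between 2.50 and 2.91 (-0.04, adjusted p = 0.923).

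None of the 12 cytoplasmic parts passed in limma, and 2 had an unadjusted p under 0.05, Gsk3b (0.00398) and Gsk3a (0.0389), while 22.4% of all genes had such a p in either direction. Gsk3b, a kinase that marks beta-catenin for destruction, had values of 11.26, 11.17 and 11.02 in LSK and 10.60, 10.54 and 10.66 in LK. The populations did not overlap, and its log2 difference of 0.55 (SE 0.13), or 1.46-fold, had an adjusted p of 0.0540. A second of the 6 Gsk3b probe sets had a difference on the same side (log2 difference 1.53, SE 0.35, adjusted p over all probe sets 0.0746, and 0.0260 under the replicate block). The other 4 had differences of 0.58, 0.10, -0.22 and -0.21 that did not pass. Gsk3a, the paralog, had 6.69, 6.04 and 7.02 in LSK and 7.29, 7.18 and 7.21 in LK, without overlap and on the other side (log2 difference -0.64, SE 0.25, adjusted p = 0.194). The difference between the paralogs was not tested.

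The transcript of beta-catenin itself did not pass. Ctnnb1 had log2 intensities of 11.96, 12.17 and 11.91 in LSK and 11.86, 11.98 and 11.78 in LK, which overlapped, with a log2 difference of 0.14 (SE 0.14, adjusted p = 0.617). Csnk1a1, the priming kinase of the destruction complex, had 11.36, 11.59 and 11.52 in LSK and 11.39, 11.40 and 11.34 in LK, also with overlap (0.11, SE 0.12, adjusted p = 0.675). Its further probe sets had differences of 0.72, 0.60, 0.04 and -0.01. The first of these, near the lower end of the range, had a limma adjusted p over all probe sets of 0.153 (0.0320 under the replicate block). The second, with a mean log2 of 6.83, had 0.464 (0.0412 under the block). The scaffolds Apc (0.02, SE 0.23) and Axin1 (0.02, SE 0.23) had adjusted p of 0.971 and 0.966. The second Axin1 probe set, near the lower end of the range, had a difference of 0.43 (SE 0.13, adjusted p over all probe sets 0.156). A further Apc probe set had -0.49 (SE 0.21, adjusted p over all probe sets 0.291). These are transcript levels, and the pathway is controlled largely through the stability of the beta-catenin protein.

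Axin2 and Nkd1, feedback inhibitors that canonical Wnt signalling induces in many tissues, lay near the lower end of the range. Axin2 had values of 3.08, 2.74 and 2.98 in LSK and 3.08, 3.01 and 2.67 in LK, which overlapped (log2 difference 0.01, SE 0.17, adjusted p = 0.978). The second Axin2 probe set, dimmer still, had 2.78, 2.74 and 2.69 in LSK and 2.18, 2.35 and 2.54 in LK (0.38, SE 0.14, adjusted p over all probe sets 0.207). Nkd1 lay between 2.58 and 3.39 (-0.06, adjusted p = 0.931). Porcn, which attaches the lipid that Wnt ligands need for secretion, lay between 2.39 and 3.00 (-0.22, adjusted p = 0.556). Of the Dishevelled genes, Dvl1 had 9.77, 10.13 and 9.97 in LSK and 9.92, 11.08 and 9.85 in LK, where replicate 2 stood above the rest (-0.33, SE 0.34, adjusted p = 0.640). Dvl2 had 4.87, 3.70 and 3.64 in LSK and 3.31, 3.05 and 3.43 in LK, without overlap (0.81, SE 0.34, adjusted p = 0.226), and Dvl3 lay between 2.39 and 3.06 (0.20, adjusted p = 0.614).

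**Figure D3:**
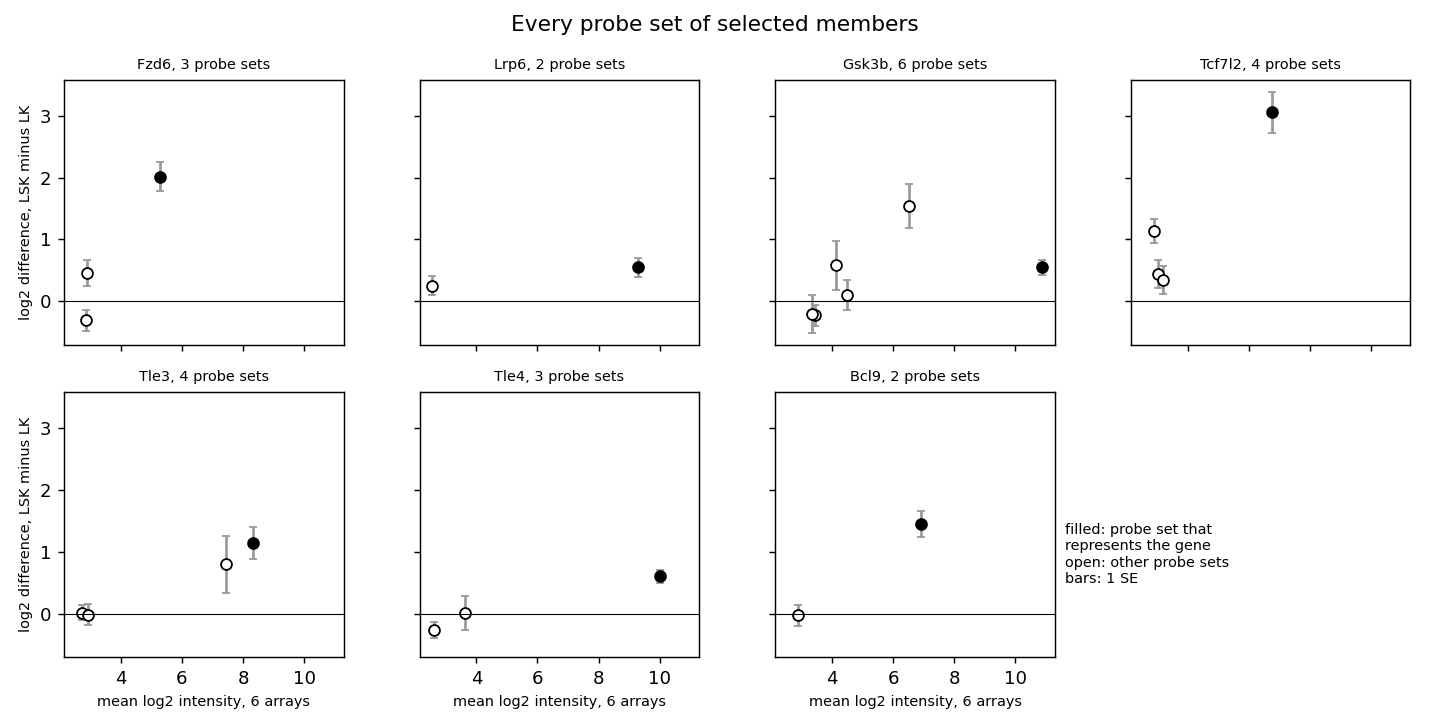
Every probe set of 7 members, with its mean log2 intensity over the 6 arrays on the horizontal axis and its log2 difference (LSK minus LK, bars of 1 SE) on the vertical axis, the filled point being the one that represents the gene. For Fzd6, Lrp6, Tle4 and Bcl9 the other probe sets have means under a log2 of 4 and differences between -0.31 and 0.46.

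The 37 members were covered by 90 probe sets. Of these, 15 (16.7%) were higher in LSK at an unadjusted limma p under 0.05, in 13 genes, against 8.99% of all 45037 probe sets. Gsk3a gave the 1 probe set lower at that p (1.1%), against 8.72% of all. Unlike the members' probe sets, the 45037 include 9160 not listed with a gene symbol and 932 with several. Probe sets of the same gene are not independent. Among the members, Tcf7l2 and Gsk3b had 2 higher probe sets and 11 other genes 1 each.

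Genes of the pathway outside the member list were read in the same fit. Of 110 listed, 108 were measured, and 8 were higher and 3 lower in LSK, against 3.84% and 2.89% of all genes. Their median log2 difference was 0.04. Under the replicate block 11 were higher and 5 lower, against 7.02% and 7.36% of all genes. Of the 19 Wnt ligands, 0 passed in limma (0 at an unadjusted p under 0.05), and each had a mean log2 under 4, with differences between -0.35 and 0.23. Of the 17 secretion factors and secreted modulators, among them the Dkk and Sfrp inhibitors and the R-spondins, 0 passed (1 at an unadjusted p under 0.05), and 16 had a mean under 4.

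Of 14 other receptors measured, 1 was lower. Celsr3, an atypical cadherin of the planar polarity branch, had log2 intensities of 2.45, 2.52 and 3.01 in LSK and 3.65, 4.67 and 4.54 in LK. The populations did not overlap, and the log2 difference was -1.63 (SE 0.30, limma adjusted p = 0.0298). The adjusted p was 0.106 and 0.0836 without LSK replicate 1 and 2, and 0.0713 and 0.113 without LK replicate 2 and 3. Vangl2, of the same branch, passed with the block (log2 difference 0.9997, adjusted p 0.0538 without and 0.0156 with it).

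Of 23 other cytoplasmic parts, 2 were higher and 2 lower. Csnk1g3, a membrane-bound casein kinase, rose by 1.19 on the log2 scale from LK to LSK (SE 0.14, 2.27-fold, limma adjusted p = 0.00755). The mean over its 2 probe sets gave 0.35 (adjusted p = 0.373), so the other probe set was lower in LSK. Of the 2, 0 had a mean log2 under 4. The ubiquitin ligase Siah1a was 2.02-fold higher (1.02, SE 0.20, adjusted p = 0.0339), with 3 of its 3 probe sets higher at an unadjusted p under 0.05. Its adjusted p rose to 0.114 and 0.0859 without LSK replicate 1 and 2, and to 0.0786 and 0.109 without LK replicate 2 and 3. Daam1, a formin of the noncanonical branch, had 6.30, 5.30 and 6.03 in LSK and 8.12, 7.63 and 7.64 in LK, a log2 difference of -1.92 (SE 0.29, adjusted p = 0.0149). This became 0.0603 without LK replicate 3 and 0.0604 with the mean of its 3 probe sets. Btrc, which recognises marked beta-catenin, had a difference of -0.83 (SE 0.18, adjusted p = 0.0475). Without LSK replicate 1 or 2 its adjusted p was 0.152 and 0.118, and without LK replicate 1 or 3 it was 0.122 and 0.162. Of its 5 probe sets, 1 lay on the other side with an unadjusted p under 0.05. Amer1, a scaffold of the destruction complex, passed with the block (0.91, adjusted p 0.0572 without and 0.0209 with it).

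Of 21 other nuclear factors, 1 was higher. Crebbp, a histone acetyltransferase recruited by beta-catenin, had 11.62, 11.69 and 11.39 in LSK and 10.64, 10.66 and 10.42 in LK. The populations lay well apart, with a log2 difference of 0.99 (SE 0.14, limma adjusted p = 0.0141), which became 0.0677 without LSK replicate 1 and 0.0668 without LK replicate 3. Its relative Ep300 had a difference of -0.13 (SE 0.15, adjusted p = 0.662). Under the replicate block 2 of the 21 were lower, the ATPase gene Ruvbl2 (-0.96, adjusted p 0.0856 without and 0.0129 with the block) and Cdc73 (-0.72, 0.183 and 0.0288).

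Genes named as Wnt targets in other tissues gave 5 higher and 0 lower of 14 measured, with a median log2 difference of 0.54. Of all genes 3.84% were higher and 2.89% lower. Of the 14, 3 had a mean log2 under 4, and 7.99% of all genes with a mean of at least 4 were higher. The 5 were Notch1 (3.14-fold, limma adjusted p = 0.00487), Jun (2.99-fold, 0.0471), Tcf4 (2.86-fold, 0.00910), Sox4 (2.63-fold, 0.0115) and Cd44 (1.70-fold, 0.0353). The list was chosen with earlier results of these data known, so these counts are no evidence of an excess of target genes. These genes answer to many other signals, and the list does not measure Wnt activity. Jun was lost when any 1 array was left out (adjusted p from 0.0637 to 0.146). Cd44 was lost in each such fit except that without LSK replicate 3 (0.0813 to 0.121), and Sox4 without LSK replicate 1 (0.05001) or LK replicate 3 (0.0586). Ccnd1, a cyclin of the first growth phase, had values of 7.57, 6.62 and 6.13 in LSK and 6.00, 4.39 and 4.75 in LK, and passed with the block (log2 difference 1.73, adjusted p 0.0993 without and 0.00823 with it). Myc had a difference of -0.45 (SE 0.19, adjusted p = 0.222), and Sp5 lay between 2.59 and 2.94 (-0.02, adjusted p = 0.950).

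**Figure D4:**
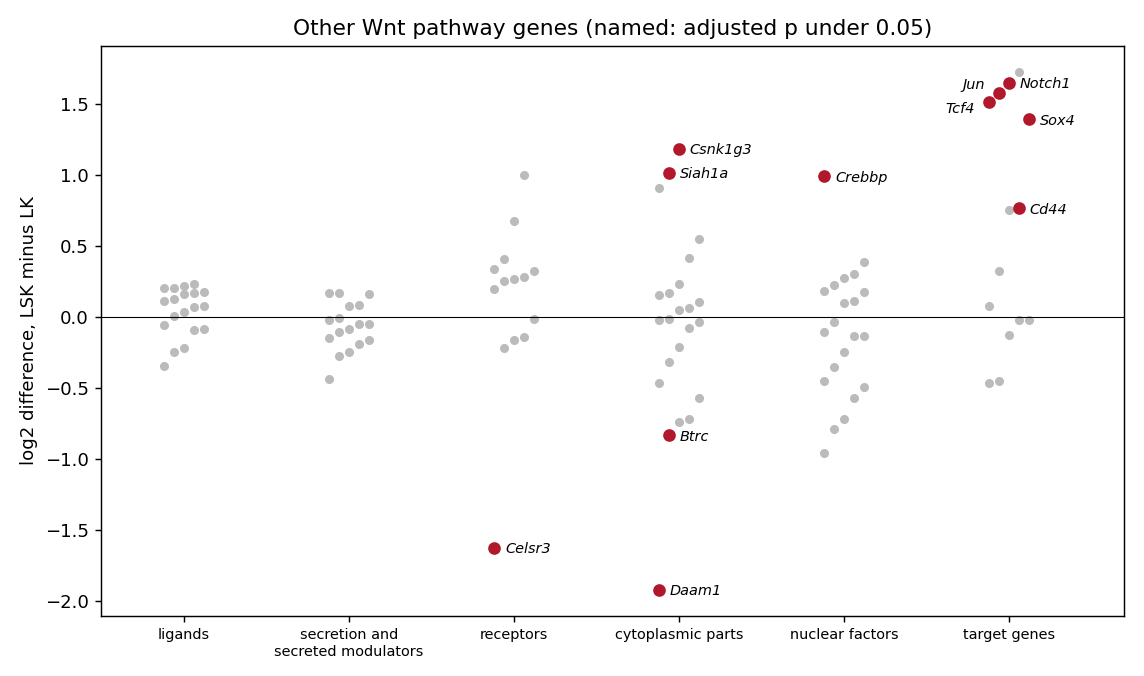
Log2 difference (LSK minus LK) of 108 other pathway genes by list, each point a gene and red points with names past a limma adjusted p of 0.05. The ligands lie between -0.35 and 0.23, and 5 of the 14 target genes are named, each higher in LSK, as were 3.84% of all genes. The lists were chosen with earlier results of these data known.

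The strength of the member calls differed when the data were processed in other ways. Over 16 alternatives Tcf7l2 passed in 15, Bcl9 in 13, Tle3 in 7, Tle4 in 7 and Lrp6 in 2, and Tle2 in 6 of the 15 in which it was measured. Fzd6 passed in 13 of 15, not counting the filter on dim probe sets, which it met through its LSK level alone. The number of members higher in LSK is given here with the share of all genes higher in the same fit. With 1 array left out it was 3 without LSK replicate 1 (1.34%) or 2 (2.61%) and without LK replicate 1 (2.69%) or 2 (2.5%), 4 without LSK replicate 3 (3.21%) and 2, Fzd6 and Tcf7l2, without LK replicate 3 (1.26%). Without both arrays numbered 2 it was 1, Tcf7l2 (2.04%). It was 7 after renewed quantile normalisation (4.57%), after cyclic loess (5.29%) and with trend and robust variances (4.51%), where Tle3 and Gsk3b were added to the 5. Array weights gave 10 (7.17%), adding Lrp6, Znrf3 and Tle6 as well. The filter on dim probe sets gave 5 of 15 (11.9%), Fzd6 among them, a count that is no support for that gene. It was 4 with the mean of all probe sets (3.25%) and also 4 without probe sets whose suffix marks possible matches to several transcripts (3.51%).

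**Figure D5:**
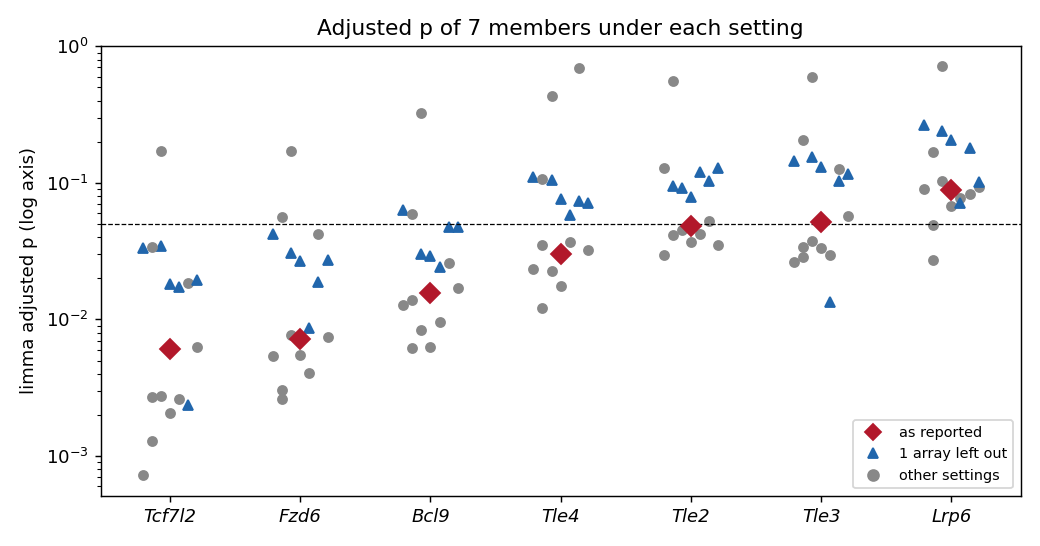
Limma adjusted p (log axis) of 7 members under the reported setting (diamonds), with 1 array left out (triangles) and under the other settings (circles), with a dashed line at 0.05. The grey points of Tcf7l2 and Fzd6 above the line include the covariate fit (0.171 and 0.172).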

How the data were processed

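Sorted LSK and LK samples, 3 per population, gave RNA that underwent linear amplification and biotin labelling before hybridisation to Affymetrix mouse arrays, per the labels' protocols. The authors deposited linear intensities per probe set from RMA (affy, R 2.11.0), as listed in the submitters' processing notes. RMA usually equalises the arrays' distributions, which hides a change common to all genes. In the deposited values the upper quartiles of intensity still ran from 20.8 (LK replicate 2) to 25.8 (LSK replicate 3). From the table, log2 values were taken for 45037 probe sets, leaving out 64 controls. Of these, 34945 carried 1 gene symbol, 932 carried several and 9160 were not listed. A RefSeq table (GRCm38.p6) updated the symbols of 34741 by gene identifier.

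All 18193 genes entered 1 limma fit (3.58.1, R 4.3.3) of LSK against LK on population alone, using lmFit and eBayes, with two-sided p-values adjusted by Benjamini-Hochberg over all genes and a threshold of 0.05. SD is over 3 arrays. The sample numbers are unexplained in the labels. Deviations from the population means correlated at 0.42, 0.43 and 0.27 between arrays of the same number, so the number was taken to pair them, a pairing read from the data. The fit was also run on simulated arrays with independent noise. These hold neither the correlation between arrays of the same number nor the 3' bias, so that run cannot speak to either. All members could be named, and of the other pathway genes those past the threshold were. Genes past it with the block alone, the paralogs Ep300 and Tle5, and Myc, Sp5, Elane, Emcn, Nkg7 and Tfrc were named after their values were seen. The members and lists were chosen with earlier results of these data known.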

Additional observations from a re-analysis of the deposited data

How the results depend on the processing

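Of 37 members, 5 were higher in LSK as reported. The number was 10 with array weights (2606 genes called in all), 1 (Tcf7l2) without both arrays numbered 2, 0 with the measure of 3' bias as a covariate (25 genes called in all), and 2 to 4 when 1 array was left out. Between 4 and 7 were higher under cyclic loess or renewed quantile normalisation, the replicate block, the filter on dim probe sets (a mean log2 of at least 5 in 1 population, 15 members measured), other ways to represent a gene, and trend and robust variances. In each of these settings 0 members were lower. Of the other pathway genes, 8 were higher and 3 lower as reported (3.84% and 2.89% of all genes). The numbers were 5 and 1 with the mean of all probe sets (3.25% and 2.1%), 13 higher with array weights (7.17%) and 5 lower with the replicate block (7.36%). They were 5 and 1 without both arrays numbered 2 (2.04% and 0.912%), and 0 and 0 with the covariate (0.137% and 0.0%). When 1 array was left out, 3 to 8 were higher (1.26% to 3.21%) and 0 to 3 lower (0.418% to 3.77%). The replicate block changed the calls named beside it in the report and no other call among the members and the named genes. Neither the genes past the threshold nor Tle3 and Lrp6 changed direction in any setting. The causes were not tested. The number of arrays and the lower end of the intensity range, where 22 members lie, limit what can be seen.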
